A study of Homo sapiens with 2 samples.

Results

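The chromatin contacts of FAT2 and its neighbours SPARC, SLC36A1 and GM2A on chromosome 5 were examined in an H3K27ac HiChIP of KYSE180, an established line of esophageal squamous cell carcinoma (ESCC). The members were defined by position, as the loops with at least 1 bin starting between 150600000 and 151300000 of hg19. Of the 31950 listed loops, 39 met this rule. The locus itself was chosen with earlier results of these data known, and FAT2 is among the genes for which the paper shows contacts from this assay. HiChIP ligates DNA that lies close together in the nucleus and enriches for ligated pairs that carry the acetylated histone mark H3K27ac. A loop joined 2 bins of 2 kb, called anchors here. Its contacts were the read pairs that joined the bins, and the coverage was the count at the first, lower bin. The samples were 2 libraries labelled as replicates of 1 condition, in which non-targeting siRNA had been introduced into the cells, and the study deposited 1 list for both. There was thus no replicate spread, no comparison between conditions and no test across samples, and the 95% intervals given (exact Poisson for counts, Wilson for shares) cover counting error only. Nothing in the labels gives separate cultures for the libraries, and their depths are not shown by the list. The coverage of its 21636 first bins summed to 368661. As the list holds no expression values, the squamous identity of the cells was not checked against marker genes.

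H3K27ac marks active promoters and enhancers, and a super-enhancer (SE) is a long run of such chromatin with dense factor binding. Enhancers act on promoters at a distance, often past other genes, so a promoter cannot be paired with its enhancer by position alone. FAT2 encodes an atypical cadherin of the cell surface of squamous epithelia, a large protein related to the Fat tumor suppressor of flies, and takes part in epithelial cell migration. SPARC encodes a secreted glycoprotein of the extracellular matrix, made mainly by fibroblasts, endothelium and bone cells. SLC36A1 encodes a proton-coupled amino acid transporter of the lysosome, and GM2A the activator protein that lets the lysosomal hexosaminidase degrade GM2 ganglioside. The study used the assay to assign active chromatin to the genes that it touches, FAT2 among them.

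On hg19, the build that the processing notes of the submitters name, FAT2 lies at 150883654 to 150948505 and SPARC at 151040657 to 151066726, both on the minus strand. SLC36A1 lies at about 150827000 to 150872000 on the plus strand. In the GENCODE 44 annotation of hg38, which served here for order, strand and distances, the protein-coding genes run CCDC69, GM2A, SLC36A3, SLC36A2, SLC36A1, FAT2, SPARC, ATOX1, G3BP1 and GLRA1. GM2A is on the plus strand, and its hg19 position is not given in the sources used here. The distance from the 3′ end of FAT2 to the 3′ end of SPARC was 157003 bases by the hg19 positions and 157004 bases in hg38. Distances measured in hg38 are therefore set beside distances between listed bins, and no position was carried from one build to the other.

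The 5′ end of FAT2 differed between the annotations. By its hg19 ends the gene was 64.9 kb long, whereas the reference transcript of GENCODE 44 was 87.2 kb long. In hg38 the upstream edge of its exon 2 lay 64860 bases from the 3′ end of the gene, against a length of 64852 bases by the hg19 ends. The hg19 5′ end thus fell at the start of what is now exon 2, and the current 5′ end lies 22.4 kb farther upstream. Unless stated otherwise, distances are given from the hg19 5′ end, with upstream of FAT2 toward higher positions.

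The 250 bases before the 5′ ends of the 4 genes are shown because the list placed anchors at some of these starts and none at others. An anchor lay at the start of SLC36A1 and, by distance, at that of GM2A. None lay at the start of SPARC or at the current 5′ end of FAT2. The FAT2 window is therefore not the sequence of the anchors at the hg19 5′ end, 22.4 kb away. They were taken from the RefSeq promoter table (GRCh38.p14), in which 4 of 4 members had an entry, and are printed from 5′ to 3′ on the strand of the gene. The windows are chr5:151591332-151591581 (minus) for FAT2, at the current 5′ end, chr5:151686916-151687165 (minus) for SPARC, chr5:151447353-151447602 (plus) for SLC36A1, and chr5:151252935-151253184 (plus) for GM2A. For SLC36A1, which also has a start farther upstream in the table, the start of its reference transcript was taken. Capitals mark CATG (the core of p53-family half-sites, p63 included), GGGCGG (the GC box) and CACGTG (an E-box, looked for after the sequences were seen), on either strand.
FAT2: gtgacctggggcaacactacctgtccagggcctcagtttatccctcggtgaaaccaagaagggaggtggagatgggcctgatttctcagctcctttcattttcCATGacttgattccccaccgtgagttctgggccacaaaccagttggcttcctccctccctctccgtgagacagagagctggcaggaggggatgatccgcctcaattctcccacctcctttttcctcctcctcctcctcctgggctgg
SPARC: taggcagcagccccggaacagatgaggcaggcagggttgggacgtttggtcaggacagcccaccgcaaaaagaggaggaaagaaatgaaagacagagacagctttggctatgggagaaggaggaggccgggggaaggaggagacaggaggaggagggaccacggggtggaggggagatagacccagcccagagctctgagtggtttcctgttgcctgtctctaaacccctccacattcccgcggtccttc
SLC36A1: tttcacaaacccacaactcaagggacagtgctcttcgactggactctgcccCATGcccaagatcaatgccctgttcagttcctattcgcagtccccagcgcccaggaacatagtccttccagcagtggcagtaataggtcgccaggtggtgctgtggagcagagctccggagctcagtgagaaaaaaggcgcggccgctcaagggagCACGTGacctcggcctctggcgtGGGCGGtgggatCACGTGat
GM2A: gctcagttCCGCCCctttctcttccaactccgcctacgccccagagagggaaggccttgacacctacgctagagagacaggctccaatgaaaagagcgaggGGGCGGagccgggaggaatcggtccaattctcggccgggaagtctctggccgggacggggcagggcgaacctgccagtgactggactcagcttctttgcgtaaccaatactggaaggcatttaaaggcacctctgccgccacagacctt

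The FAT2 window held 1 CATG, and the SLC36A1 window 1 CATG, 1 GGGCGG and 2 CACGTG. The GM2A window held 2 GGGCGG, and the SPARC window none of these. Of 35116 windows of the same length, 47.6% held CATG, 42.6% GGGCGG and 6.34% CACGTG. The TATA box TATAAA (10.7% of windows), the AP-1 site TGANTCA (6.57%) and a pair of CATG with 6 bases between (0.296%) were in none of the 4 windows. The windows of GM2A and SLC36A1 held 15 and 13 CpG dinucleotides, those of SPARC and FAT2 7 and 4, against a median of 11. Their GC content ranged from 56.8% in FAT2 to 60% in GM2A (median of all windows, 58%). A match is a string of letters, and its absence says only that these letters are not in the window.

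The 39 loops of the locus (95% Poisson interval 27.7 to 53.3) carried 43 contacts and used 34 anchors inside the interval. The median span was 48 kb, with quartiles of 19 and 265 kb, against 120 kb in the whole list. Among the 2662 windows of 700 kb in which any loop was listed, the median was 7 loops, and 10.5% held as many as this locus. The loops were unevenly spread over the genes. Between the hg19 5′ end of FAT2 and the 3′ end of SPARC there were 20 anchors in 5 stretches of touching bins, and 22 of the 39 loops (56.4%, Wilson interval 41 to 70.7%) had both ends there. FAT2 by its hg19 ends held 1 anchor, and by the length of GENCODE 44 it held 7, all at or upstream of the hg19 5′ end. SLC36A1 held 2, SPARC held 0, and 0 lay between SLC36A1 and FAT2.

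**Figure D1:**
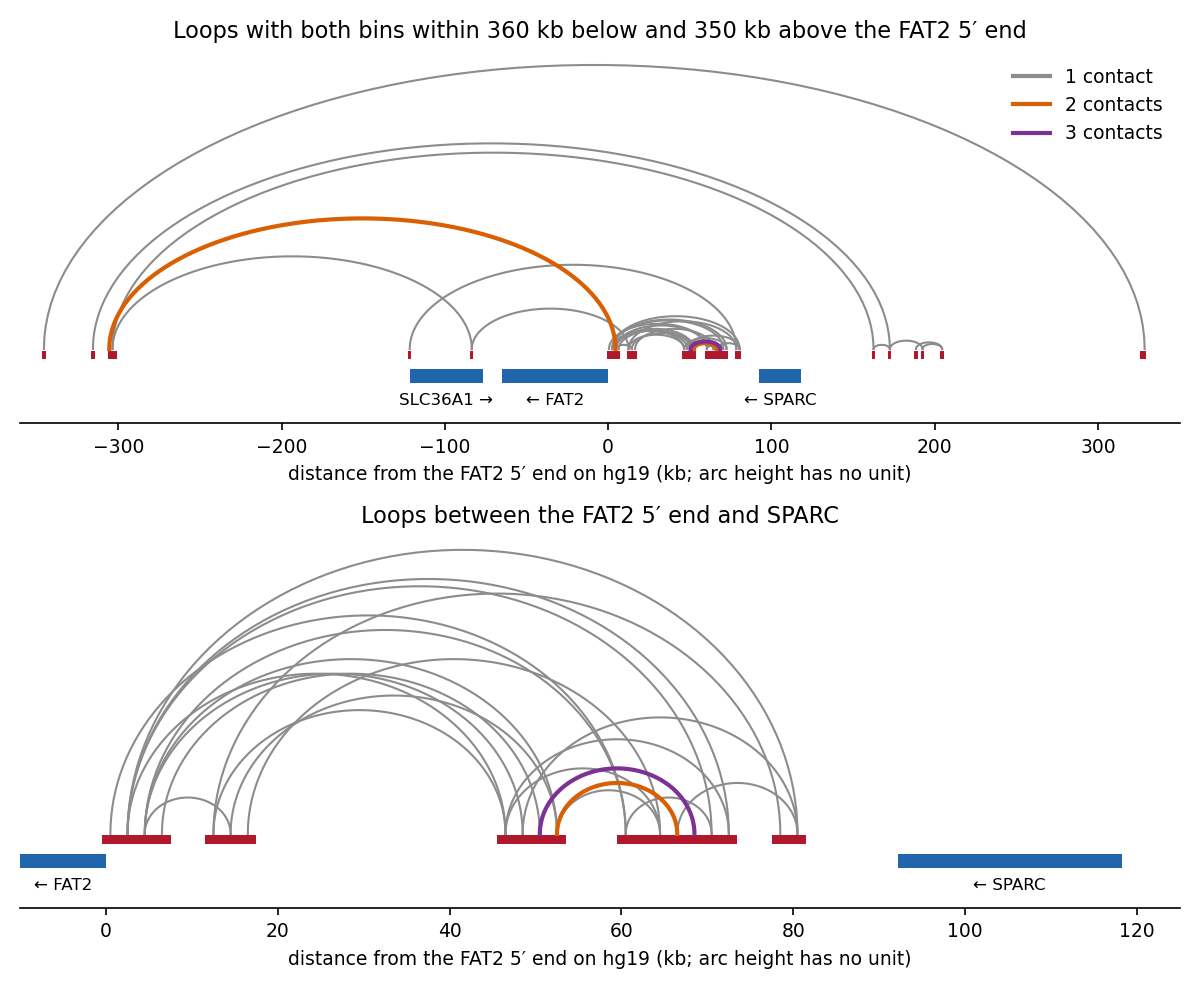
Arcs join the centres of the 2 bins of each loop against the distance from the hg19 5′ end of FAT2 in kb, with anchors as red boxes and genes as blue boxes by their hg19 ends (arrows give the strand). Loops of 1 contact are grey, of 2 orange and of 3 purple; most arcs lie between FAT2 and SPARC, none starts in SPARC, and an orange arc of 310 kb runs from the left to the anchors at the FAT2 5′ end.

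At the hg19 5′ end of FAT2, 4 touching anchors formed a stretch from 150948001 to 150956000. The bin that holds the 5′ end itself, 150948001 to 150950000, had 1 loop, to 151008001 to 151010000. The next bin upstream, 150950001 to 150952000, had 4 loops of 1 contact each, with the lower ends of their partners at 150994001, 151018001, 151020001 and 151028001. The bin after it, 150952001 to 150954000, had 5 loops with 6 contacts, the most contacts of any anchor of the locus. The last bin, 150954001 to 150956000, had 2 loops. Most loops of this stretch thus ended in the bins just upstream of the hg19 5′ end, and 1 in the bin that holds it. By GENCODE 44 these bins lie at exon 2 and in intron 1, and which start KYSE180 uses was not tested. Within 5 kb of that end there were 10 loops with 11 contacts (Poisson interval for loops, 4.80 to 18.4), and within 1 kb 1 loop.

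The 12 loops of this stretch reached 6 other stretches. They joined it by 4 loops to a stretch from 150994001 to 151002000 (spans of 44 to 48 kb), by 4 loops to another from 151008001 to 151022000 (56 to 70 kb) and by 1 loop to a stretch from 151026001 to 151030000 (78 kb). A single loop of 10 kb went to the nearest stretch, 150960001 to 150966000, and a single loop went 2086 kb downstream. All of these rested on 1 contact each. The remaining loop had 2 contacts and spanned 310 kb, to 150642001 to 150644000. Partners 44 to 78 kb upstream therefore took 9 of the 12 loops of the FAT2 stretch, and the nearest stretch took 1. These counts are not corrected for the bins on offer, 13 in the farther stretches and 3 in the nearest. No loop of the locus spanned less than 10 kb, which leaves out the closest bins of the nearest stretch.

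At the distance of the current 5′ end, 22.4 kb upstream of the hg19 5′ end, no anchor was listed. The next anchor on the FAT2 side, 150964001 to 150966000, ended 4.88 kb away, and the next on the SPARC side, 150994001 to 150996000, began 23.1 kb away. Within 5 kb of this point there was 1 loop, and within 1 kb there were 0, a count that allows up to 3 contacts. The stretch between the annotated starts, 150960001 to 150966000, lay 11.5 to 17.5 kb upstream of the hg19 5′ end, which by distance is inside intron 1 of FAT2 in GENCODE 44. It had 6 loops of 1 contact each. Of these, 4 went to the upstream cluster described next, 1 to the FAT2 stretch and 1 to SLC36A1.

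The upstream cluster, a name given here to the 3 stretches from 150994001 to 151030000, comprised 13 anchors over 36 kb and had an end of 24 loops. The largest share was with the FAT2 5′ stretch, 9 loops or 37.5% (Wilson interval 21.2 to 57.3%), followed by 8 loops with 11 contacts inside the cluster, or 33.3% (18 to 53.3%). By contacts the order was the reverse, with 9 to the FAT2 5′ stretch and 11 inside the cluster. Both shares are parts of the same 24 loops, so their intervals do not test the order, which is not resolved. The shares are not corrected for the bins on offer, 4 in the FAT2 stretch and 13 in the cluster. A further 4 loops went to the stretch in FAT2 intron 1, 1 to SLC36A1 and 2 outside the interval. Both loops of the locus that had more than 1 contact at a span under 50 kb lay inside the cluster. The loop from 150998001 to 151000000 with 151016001 to 151018000 had 3 contacts, the most of the locus, and that from 151000001 to 151002000 with 151014001 to 151016000 had 2. They joined the same 2 stretches, which had 5 loops and 8 contacts in all, the most of any pair of stretches here.

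**Figure D2:**
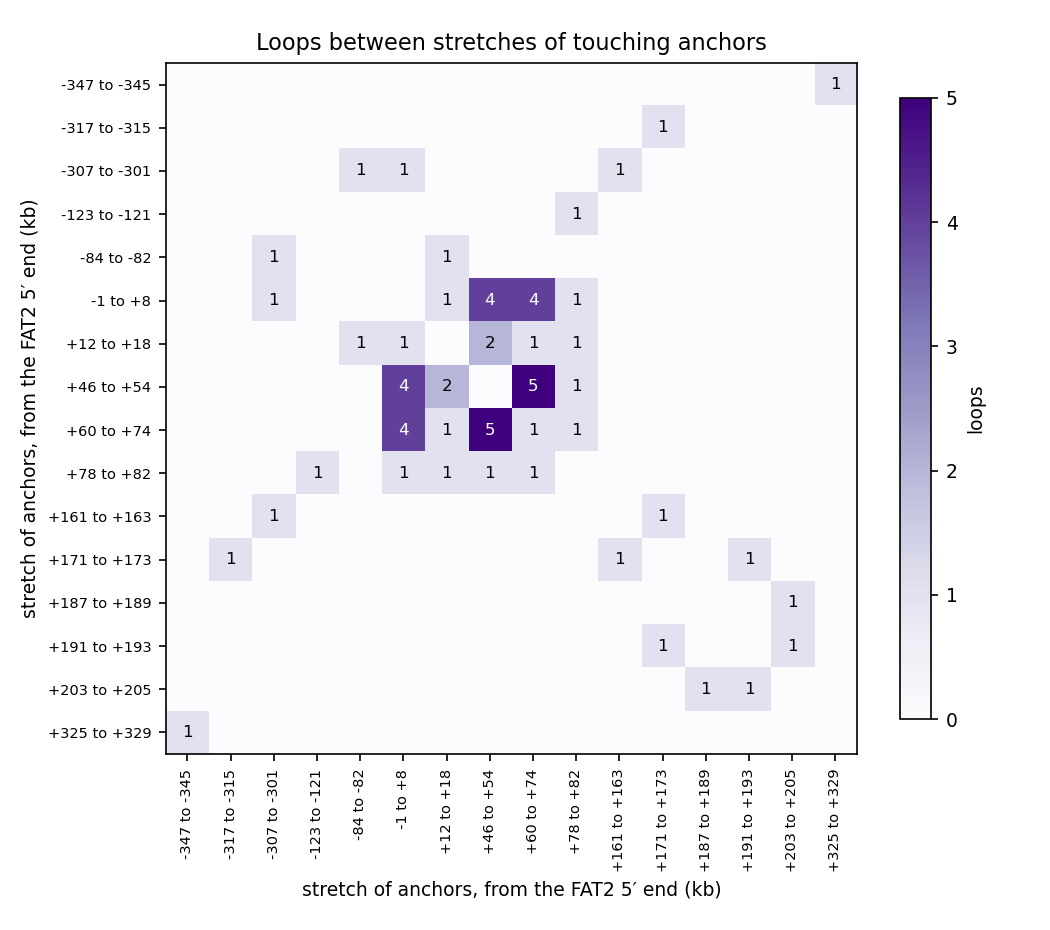
The grid gives the number of loops between the 16 stretches of touching anchors of the interval, named by their start and end in kb from the hg19 5′ end of FAT2 (negative, downstream), with darker cells for more loops. Only 4 pairs of stretches had more than 1 loop (2, 4, 4 and 5), and these join the stretches from the FAT2 5′ end to 73.5 kb upstream.

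SPARC was listed without a loop. It held 0 anchors, and its promoter had 0 loops within 1, 5 or 10 kb of the 5′ end, a count that allows up to 3 contacts (3.69 by the upper end of the Poisson interval). The upper edge of the upstream cluster lay 10.7 kb from the 3′ end and 36.7 kb from the 5′ end of SPARC. Its lower edge lay 45.5 kb from the hg19 5′ end of FAT2 and 23.1 kb from the current 5′ end, so which gene start is nearer turns with the annotation. Of its loops, 9 ended in the FAT2 stretch and 0 in SPARC. The gap without any anchor ran from 151030001 to 151110000, or 80 kb, and 22.1% of the gaps between stretches in the list were at least as long. The authors had dropped loops of which an end lacked H3K27ac. The paper also describes the loops it sought as p63-associated, and the peaks that served to call them are not named. A lack of the mark, of p63 association or of contacts at SPARC therefore cannot be told apart from this list. A gap of 82 kb from 150866001 to 150948000 likewise took in FAT2 from its 3′ end up to the bin of its hg19 5′ end.

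SLC36A1 had an anchor at its start and 1 in its body. The start bin, 150826001 to 150828000, had 1 loop of 1 contact and a coverage of 12. It reached 200 kb over the whole of FAT2 to 151026001 to 151028000, at the SPARC side of the upstream cluster. The anchor in the body, 150864001 to 150866000, had 2 loops of 1 contact each. The first, of 96 kb, went to 150960001 to 150962000 in FAT2 intron 1, and the second, of 220 kb, went down to 150644001 to 150646000. Each of these counts of 1 has a Poisson interval of 0.0253 to 5.57 contacts. The start of SLC36A1 was thus joined past FAT2 in both annotations, and its body to the interval between the annotated starts of FAT2. The number of loops joining SLC36A1 to the FAT2 5′ stretch was 0. With 2 anchors in SLC36A1 and 4 in that stretch, few pairs were on offer. In the list 3.95% of pairs of anchors 50 to 200 kb apart were joined, so no choice of partner is read from the 0.

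For GM2A, distances gave the likely anchors. In hg38 its 5′ end lay 251 kb below the 3′ end of FAT2 and its 3′ end 234 kb below. The bin from 150632001 to 150634000 lay 250 to 252 kb below the hg19 3′ end of FAT2 and so spans the distance of the GM2A start. It had 1 loop, of 488 kb and 1 contact, to 151120001 to 151122000 beyond SPARC. The stretch from 150642001 to 150648000 lay 236 to 242 kb below, within the distances of the GM2A gene. Its 4 loops had 5 contacts and went to 4 different stretches. They joined it to the FAT2 5′ stretch (310 kb, 2 contacts), to the body of SLC36A1 (220 kb), to a bin between SPARC and ATOX1 (466 kb) and to a stretch 488 kb farther down, the latter by 1 contact each. The stretch within the GM2A gene by distance was therefore joined to FAT2 and SLC36A1 by 1 loop each. These loops ran past SLC36A2 and SLC36A3, amino acid transporter genes of the SLC36A1 family. The single loop of the bin at the GM2A start went to neither FAT2 nor SLC36A1. With 1 loop in that bin and 4 in the stretch, no difference between the 2 is read from this.

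The 310 kb loop was the only one of 8 loops of the locus spanning 200 kb to 1 Mb that had more than 1 contact. This was 12.5% (Wilson interval 2.24 to 47.1%), against 1.19% of loops of this span in the whole list. The share rests on a single loop of 2 contacts, and the span class is given here because it holds that loop, so no excess is read from it. In the other classes, from short to long spans, 2 of 20, 0 of 7 and 0 of 4 loops had 2 or more contacts. Over all spans, 3 of the 39 loops had 2 or more contacts, or 7.69% (Wilson interval 2.65 to 20.3%), against 3.36% of the list, which lies within the interval. Of the 39 loops, 26 passed over at least 1 other stretch, or 66.7% (51 to 79.4%), against 79.1% of the list, which lies within the interval. These shares were not matched for span, of which the median was 48 kb here and 120 kb in the list. In 9 loops FAT2 by its hg19 ends lay between the bins, and in 6 the longer gene of GENCODE 44 did, placed by distance.

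Above SPARC, 7 anchors lay between 151110001 and 151278000, and 4 loops joined them to each other. ATOX1, a copper chaperone, and G3BP1, an RNA-binding protein of stress granules, are the next genes there by order. In hg38 the 5′ ends of ATOX1 and G3BP1 lay 97.5 and 111 kb above the 3′ end of SPARC. On hg19, the bins from 151136001 to 151138000 (95.3 to 97.3 kb) and from 151152001 to 151154000 (111 to 113 kb) lay nearest to these distances, and a loop of 16 kb and 1 contact joined them. The bin from 151120001 to 151122000, next to the distance of the ATOX1 3′ end (81.7 kb), had 4 loops, to 151110001, 151140001, the GM2A start bin and a bin 2070 kb down. In 0 loops did an anchor above SPARC meet an anchor between FAT2 and SPARC, while 3 loops met anchors below SLC36A1. In the list 3.95% of pairs of anchors 50 to 200 kb apart were joined. The pairs on offer here were not counted, so nothing is read from the 0 or from its contrast with the 3.

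**Figure D3:**
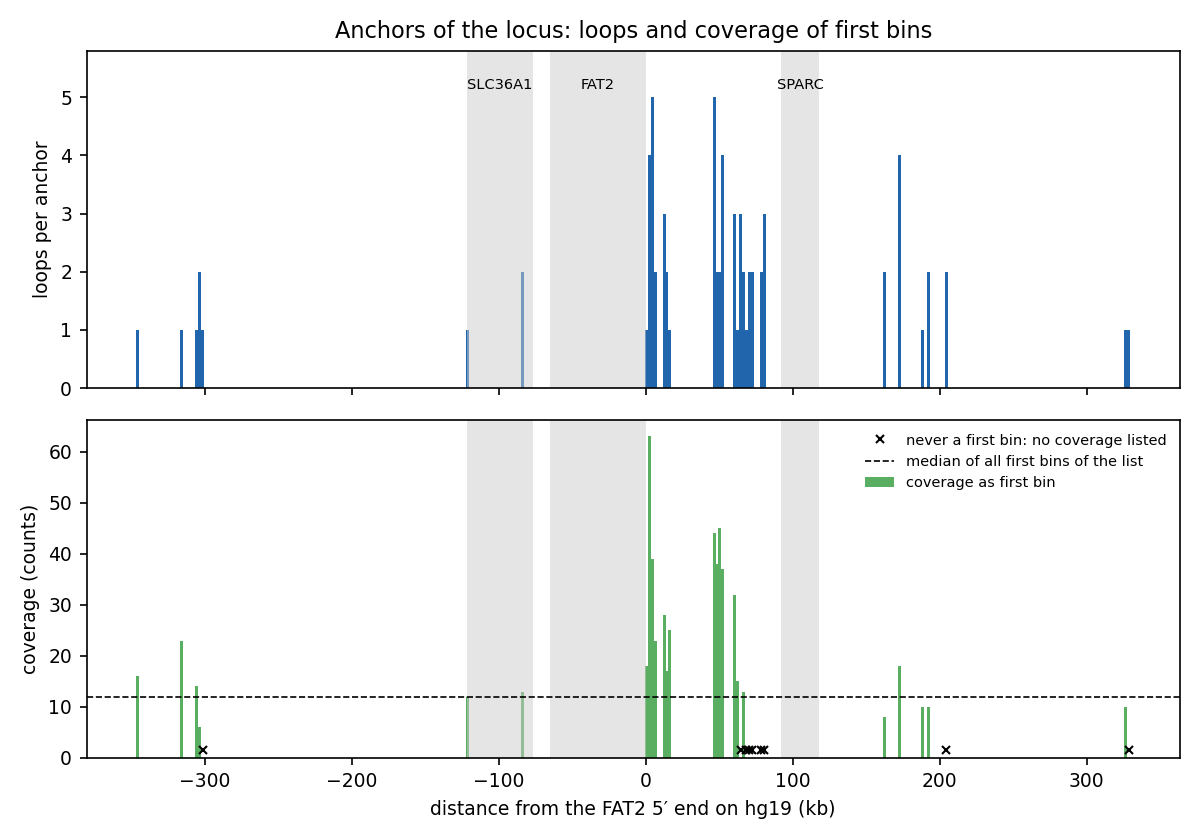
The upper panel gives the loops per anchor and the lower panel the coverage of each anchor that was a first bin, both against the distance from the hg19 5′ end of FAT2 in kb, with genes shaded, the list median of 12 dashed and anchors without a listed coverage as crosses. Coverage is highest just upstream of the FAT2 5′ end, with 63 counts at most, and is also high 46.5 to 52.5 kb from it. Bins with 4 or 5 loops lie in both places, though the bins at 48.5 and 50.5 kb had 2 loops each. Another bin, 172 kb away, had 4 loops at a coverage of 18.

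The coverage was highest in the part of the locus with most loops, but did not follow the number of loops bin by bin. It is listed only for first bins, which were 25 of the 34 anchors. Among them, the bin from 150950001 to 150952000, just upstream of the hg19 5′ end of FAT2, had the highest, with 63 counts, and 2.02% of all first bins of the list had as many. That share is for single bins, whereas this bin is the highest of 25, so no excess is read from it. The bin that holds the hg19 5′ end of FAT2 had 18 counts. The bins of the stretch from 150994001 to 151002000 had 44, 38, 45 and 37 counts. Over the 14 first bins from the FAT2 5′ end to SPARC, the median was 30 (interquartile range 19.2 to 38.8), against 12 (10 to 15) in the other 11 first bins of the interval and 12 (8 to 20) in the list. The 14 bins were thus read more often than the other 11, which lay at the level of the list. The group was formed after its loops had been seen. Its bins without a listed coverage all lie on the SPARC side, where the bins from 151010001 and 151014001 had 15 and 13 counts. The 5 anchors with 4 or more loops, given by their lower ends, were 150950001, 150952001, 150994001 and 151000001, all with coverage of 37 or more, and 151120001 with 18. In the list 9.33% of anchors had as many loops.

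The share of pairs of anchors that a loop joined was set beside the list at the same distance. Of the 20 anchors from the FAT2 5′ end to SPARC, 89 pairs were 10 to 50 kb apart, and 16 of them were joined, or 18% (Wilson interval 11.4 to 27.2%). In the list 11.6% of such pairs were. Of the pairs 50 to 200 kb apart, 6 of 60 were joined, or 10% (4.66 to 20.1%), against 3.95% in the list. Over all anchors of the interval the shares were 18.9% (12.6 to 27.4%) and 3.35% (1.63 to 6.75%). The 20 anchors were grouped after their loops had been seen, pairs share bins, and the higher coverage listed for 14 of these bins moves with the share. The part of the coverage in it was not tested.

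**Figure D4:**
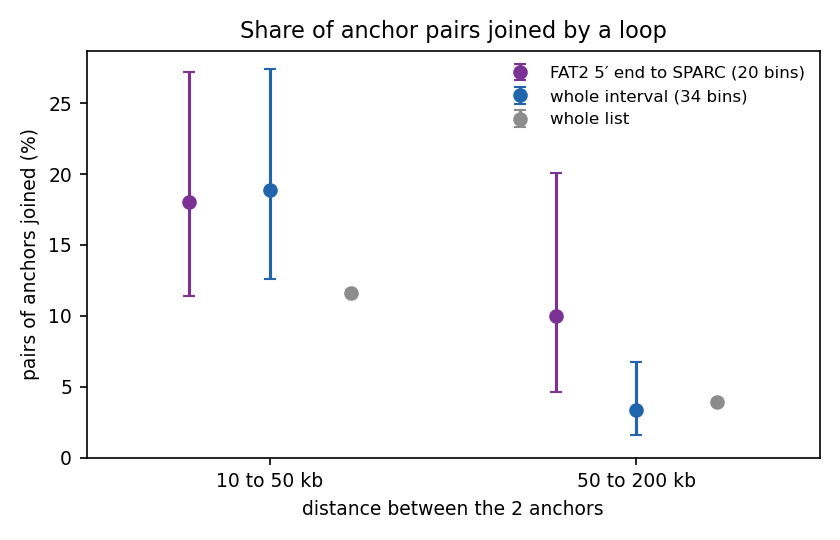
Points give the percentage of pairs of anchors joined by a loop, for pairs 10 to 50 kb and 50 to 200 kb apart, with bars as 95% Wilson intervals, which for the list are smaller than the points. The anchors from the FAT2 5′ end to SPARC are at 18% and 10%, and the list at 11.6% and 3.95%.

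A few loops left the interval, 4 downward and 2 upward, over 488 to 2562 kb, each with 1 contact. The FAT2 5′ stretch and the upstream cluster had 3 of them. They joined 150954001 to 150956000 with 148868001 to 148870000 (2086 kb), 150994001 to 150996000 with 148824001 to 148826000 (2170 kb), and 151010001 to 151012000 with 153572001 to 153574000 (2562 kb). The downward partners of FAT2 and of its cluster lay in stretches from 148864001 to 148870000 and from 148818001 to 148826000. The genes there were not placed.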

How the data were processed

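H3K27ac HiChIP of KYSE180 with non-targeting siRNA was analysed. Per the paper, the authors used HiC-Pro for alignment and filtering. FitHiChIP (Peak-To-All mode) then served to find loops that the paper calls active and p63-associated, and loops lacking H3K27ac at an end were dropped. Which peaks were given to FitHiChIP is not stated. Versions and thresholds are not given in the sources used here. The build, hg19, is from the processing notes of the submitters. The deposited list pools 2 libraries and holds contacts as counts and, for first bins, their coverage, both without normalization and both identified by the order in which FitHiChIP writes columns. In 0 of 21636 first bins did contacts exceed the coverage, and coverage had 1 value per bin. Gene ends on hg19 came from the definition of the locus. Those of hg38 (GENCODE 44) gave order, strand and distances only. The promoter window was 5 kb on each side of the 5′ end, and stretches were runs of touching anchors. The genes named were the 4 members and their annotated neighbours. The members, windows and lists were chosen with earlier results of these data known. The counting was tested on planted loops, and 20 of 20 lists were recovered. Intervals are 95% Wilson or exact Poisson, and a count of 0 was taken to allow 3 contacts. Motifs were searched on both strands of 250 bases. Tables were computed in Python 3.11.15 with pandas 2.3.3, numpy 2.4.6 and scipy 1.17.1, and drawn with matplotlib 3.10.9. Alternatives were the width and place of promoter windows, minimum span and contacts, both bins inside the interval, merging of close anchors, contacts in place of loops, and chromosome 5 as background.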

Additional observations from a re-analysis of the deposited data

How the results depend on the processing

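Of 39 recomputed values of 14 results, 28 stayed within 1.5 times the reported count or within its interval, and 11 moved. The hg19 5′ end of FAT2 had 1 loop in place of 10 when the window was 1 kb, since the wider window takes in the bins upstream. At the distance of the GENCODE 44 start, an alternative chosen after seeing the data, there was 1 loop within 5 kb and 0 within 1 kb, and with this start 7 anchors in place of 1 lay in FAT2. With at least 2 contacts, 3 of the 39 loops of the locus were left, 1 at the hg19 5′ end of FAT2, 0 at the start of SLC36A1, and 2 of 21 inside the interval between FAT2 and SPARC, with 0 from there to FAT2 or SLC36A1. The loops of the locus thus rest mainly on single contacts. With a span of at least 20 kb, 3 anchors in place of 5 had 4 or more loops. SPARC had 0 loops under each setting tried for it, but only the 10 kb window could have added any. The others filter or recount a count of 0, or need an anchor that SPARC lacks. Their values are among the 28 and could not move. No paired analysis was possible because the list has no column for either library, and for the same reason no replicate was left out.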
